A study of Mus musculus with 24 samples.

Results

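The mammalian circadian clock keeps time through genes that switch themselves off, and 10 of those genes were followed here in C2C12 myotubes, cells of a mouse muscle line fused into multinucleated fibres. They are the period genes Per1, Per2 and Per3, the cryptochromes Cry1 and Cry2, the REV-ERB receptors Nr1d1 and Nr1d2, the repressors Bhlhe40 and Bhlhe41 (also known as DEC1 and DEC2) and the output factor Dbp. They were chosen by name, as the repressor limbs of the clock and its best known output gene, with earlier results of these data known. Their counts and sizes of change beside those of all genes are therefore descriptions only. All 10 passed the filter on low counts, out of 14541 genes tested and 55487 listed.

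The RNA came from 24 cultures in 4 groups of 6, each of wild-type C2C12 cells differentiated under 5 % O2 and labelled as day 5. Cultures given 2 h at 5 % O2 were left unstimulated (5 % CTRL) or received bouts of electrical stimulation that imitate sprint interval exercise (5 % STIM). Cultures given 2 h at 1 % O2 were likewise left unstimulated (1 % CTRL) or stimulated (1 % STIM). All myotubes were thus grown at 5 % O2 in low-serum medium, and 1 % O2 was an acute exposure that began after a change to fresh medium equilibrated at 5 % O2. The medium was also replaced before and after stimulation. Stimulated cells were collected directly after the bouts. The bouts followed the 2 h, so these cells spent longer than 2 h at their O2 level. Whether the controls had the same medium changes or the same total time, and the clock time of collection, were not given in the sources used here. Where stimulated cultures are set against controls, stimulation and any longer time at that O2 level cannot be told apart.

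C2C12 is a single cell line, so the replicates are cultures and not animals. Values are normalized counts, meaning reads of a gene divided by the size factor of the library. Where their reads could be recovered, libraries held 26541858 to 28173745 reads. All 10 myotube markers were tested, and their summed normalized counts ran from 454269 to 566579 over the 24 libraries. The summed counts of 6 markers of proliferating myoblasts ran from 3159 to 5569. Of the 4 markers each for endothelium, adipocytes, leukocytes and neurons, none, none, 1 (Cd68) and 1 (Tubb3) reached the filter. Summed counts ran from 6.72 to 25.7 for endothelium, from 0 to 7.22 for adipocytes and from 28.6 to 75.6 for leukocytes. The neuron list summed to 453 to 1409 through Tubb3, a tubulin gene, which was lower at 1 % O2 (log2 difference -0.78 without stimulation and -1.02 with it) and after stimulation (-0.38 at 5 % O2 and -0.61 at 1 % O2). Its part in the clock results was not tested, and the defining genes Snap25 (neurons), Plin1 and Cidec (adipocytes) were at 0 in every library while Ptprc (leukocytes) did not exceed 1.04. In bulk RNA, fewer cells that express a gene and less of its RNA per cell cannot be told apart.

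In the core loop, the activators CLOCK and BMAL1 (the product of Arntl) bind E-boxes in the promoters of the Per and Cry genes, whose proteins return to the nucleus and inhibit CLOCK and BMAL1. In a second loop the REV-ERB proteins repress Arntl, against its activation by the ROR receptors. BHLHE40 and BHLHE41 compete for the E-boxes themselves, and DBP carries the rhythm outward by binding D-boxes. In skeletal muscle the clock is known for setting the daily timing of fuel use. Period genes are also known to respond quickly to calcium, cyclic AMP and glucocorticoid signals, and Bhlhe40 and Bhlhe41 are known targets of hypoxia-inducible factors.

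The promoters are shown first because the feedback loops are written in them. The RefSeq table for GRCm38.p6 held 9 promoter windows for 8 of the 10 genes, each from 250 bases before to 50 bases after a transcription start. Per2 and Bhlhe40 had no entry. Letters were searched on both strands, and a match is a description of the sequence only. The 250 bases upstream of the start are given 5′ to 3′ on the strand of the gene for 4 genes. Capitals mark the E-box CACGTG in Per1, Bhlhe41 and Cry1, the related E′-box CACGTT (read here as AACGTG) in Cry1, the D-box TTATGTAA in Per3, and, in Per1, the letters AGGTCA recognised by ROR and REV-ERB receptors (read as TGACCT).
Per1, chr11:69098699-69098948, plus strand: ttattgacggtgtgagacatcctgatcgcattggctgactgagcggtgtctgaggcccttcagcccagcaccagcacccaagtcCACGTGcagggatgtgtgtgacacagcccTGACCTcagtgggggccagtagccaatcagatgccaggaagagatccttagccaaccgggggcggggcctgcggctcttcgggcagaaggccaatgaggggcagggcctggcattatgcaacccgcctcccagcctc
Bhlhe41, chr6:145865421-145865670, minus strand: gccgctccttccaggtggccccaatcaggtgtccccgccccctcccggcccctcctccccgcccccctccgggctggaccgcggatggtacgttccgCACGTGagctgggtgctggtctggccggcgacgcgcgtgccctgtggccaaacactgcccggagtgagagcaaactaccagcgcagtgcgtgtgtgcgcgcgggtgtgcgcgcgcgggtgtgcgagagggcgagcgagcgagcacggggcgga
Cry1, chr10:85185055-85185304, minus strand: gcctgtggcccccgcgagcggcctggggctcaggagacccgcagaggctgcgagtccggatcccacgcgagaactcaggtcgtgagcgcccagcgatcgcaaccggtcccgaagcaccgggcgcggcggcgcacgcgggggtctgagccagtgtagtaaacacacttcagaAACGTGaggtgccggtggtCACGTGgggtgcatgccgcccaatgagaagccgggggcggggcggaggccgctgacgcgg
Per3, chr4:151044666-151044915, minus strand: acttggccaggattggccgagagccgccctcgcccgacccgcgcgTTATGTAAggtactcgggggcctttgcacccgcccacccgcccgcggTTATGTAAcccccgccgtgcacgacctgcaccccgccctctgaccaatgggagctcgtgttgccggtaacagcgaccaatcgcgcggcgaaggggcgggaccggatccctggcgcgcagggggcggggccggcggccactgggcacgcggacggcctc

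The E-box began 166 bases before the start shown for Per1, 153 before that of Bhlhe41 and 60 before that of Cry1, and 7.15 % of all 32851 promoters of the table held one. Cry1 carried an E′-box as well, 79 bases before its start. Cry2 and Nr1d1 had an E′-box without the E-box, and 26 bases around each are given with the motif in capitals. Over all promoters the E′-box was found in 4.68 %.
Cry2, chr2:92434220-92434245, minus strand: acatggtgggAACGTGagggggcgga
Nr1d1, chr11:98775390-98775415, minus strand: cacagatctcAACGTGccggctgctg

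Per3 was set apart by a pair of D-boxes, which began 205 and 158 bases before its start, where 0.938 % of all promoters held 1 or more. The other D-box spelling, TTACGTAA, and the cyclic AMP response element TGACGTCA were found in none of the 9 windows, against 0.119 % and 1.79 % of all promoters. Nr1d2 had the receptor letters AGGTCA 77 bases before its start, as did Per1 at 137 bases, and 16.3 % of promoters held them. The letters ACGTG, the core of the hypoxia response element, lie within CACGTG and AACGTG, so they were present in Per1, Cry1, Cry2, Nr1d1 and Bhlhe41 through those motifs. Dbp held ACGTG 227 bases before its start, and 19.6 % of all promoters contained it. The other Per1 window, with upstream bases chr11:69099902-69100151, held none of the letters searched.

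The clock genes were expressed over a wide range of levels. Per kilobase of exon, the mean of 6 libraries under 5 % CTRL was 1681 normalized counts for Bhlhe40, 328 for Nr1d1, 285 for Nr1d2, 254 for Cry1 and 115 for Bhlhe41. It was 89.1 for Cry2, 86.1 for Per1, 70.5 for Per2, 18.6 for Per3 and 15.4 for Dbp. In this order the libraries of Cry2 overlapped those of Per1, and the libraries of Per3 overlapped those of Dbp, while the other neighbours did not overlap. Bhlhe40, Nr1d1 and Nr1d2 led the order in all 4 groups. Under 1 % STIM the mean of Per1 was 155 per kilobase, against 62.4 for Cry2, 29.4 for Dbp and 26.7 for Per2. There the libraries of Per2 overlapped those of Dbp and those of Per3, although Per2 stood far above Per3 at 5 % O2. The length used is that of all annotated exons of a gene, not of the transcripts expressed, so orders and ratios between genes depend on it. Before division by length, Per2 averaged 156 and Per3 197 normalized counts under 1 % STIM.

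**Figure D1:**
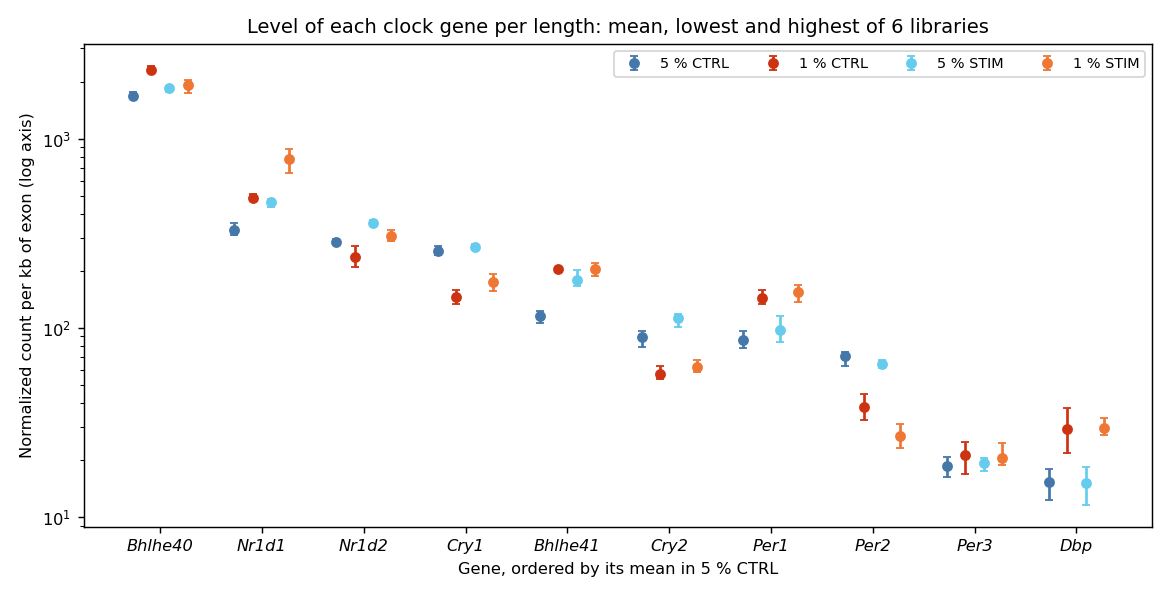
Level of each clock gene in normalized counts per kilobase of exon on a log axis, with points for the mean and bars from the lowest to the highest of 6 libraries in each group. Bhlhe40 lies above all other genes in every group, and Per2 falls from 70.5 under 5 % CTRL to 26.7 under 1 % STIM.

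The first comparison asked what 2 h at 1 % O2 did to unstimulated myotubes. Of the 10 clock genes, 9 were called at an adjusted p under 0.05, with 5 higher and 4 lower under 1 % CTRL, where 59.9 % of all genes tested were called (29.4 % higher and 30.5 % lower). The share called is therefore read against a transcriptome in which most genes moved. For all 9 the ranges of both groups stayed apart, as for 38.2 % of all genes tested. The median absolute log2 difference was 0.69 for the clock genes and 0.23 over all genes tested. Per1, Dbp, Nr1d1, Bhlhe40 and Bhlhe41 rose, and Per2, Cry1, Cry2 and Nr1d2 fell. The period and REV-ERB families each held a gene that rose and a gene that fell, whereas both cryptochromes fell and both Bhlhe genes rose. Markers of cell state moved in the same comparison, as 6 of 10 myotube markers were lower (summed counts 517017 to 566579 under 5 % CTRL and 458436 to 516901 under 1 % CTRL). Of 6 myoblast markers, 3 were higher and 2 lower (3159 to 3540 and 3588 to 5569), and the part of these shifts in the clock results was not tested.

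**Figure D2:**
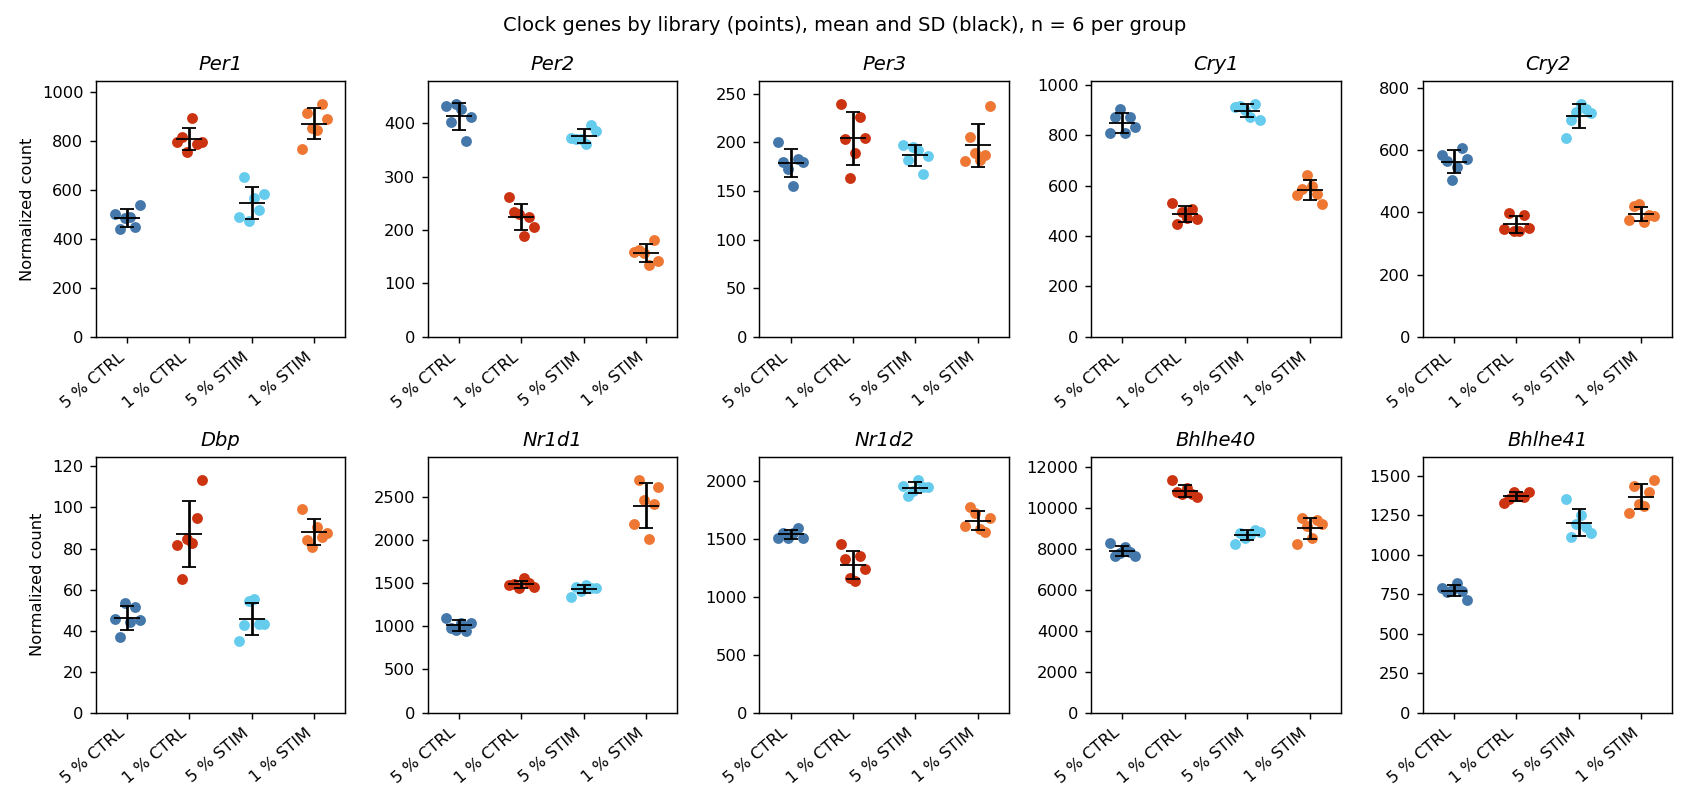
Normalized count of each clock gene in each of the 24 libraries (points), with the mean and SD of 6 libraries per group in black and a separate axis from 0 for each gene. Per1 is higher and Per2, Cry1 and Cry2 are lower in every library at 1 % O2 than in any library at 5 % O2, with or without stimulation.

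Among the period genes, which encode the scaffold of the repressor complex, Per1 (chr11:69095217-69109960, plus strand, GRCm38) and Per2 (chr1:91415982-91459324, minus strand) parted. Per1 ran from 442 to 541 normalized counts under 5 % CTRL with a median of 487, and from 757 to 894 under 1 % CTRL with a median of 798. The lowest library at 1 % O2 thus exceeded the highest at 5 % O2. Per1 rose 1.67-fold, a log2 difference of 0.74 (SE 0.064, adjusted p = 8.5e-12). Per2 ran from 368 to 436 under 5 % CTRL (median 420.0) and from 189.8 to 262 under 1 % CTRL (median 227), again with no overlap. It fell by 0.88 on the log2 scale (SE 0.0707, adjusted p = 6.75e-13), to 0.542 of its level at 5 % O2.

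Per3 (chr4:151003652-151044665, minus strand), the period gene that is dispensable for the core rhythm in mice, had overlapping groups. Its normalized count lay between 156 and 199.96 under 5 % CTRL and between 163 and 239 under 1 % CTRL, with medians of 180.0 and 204. The log2 difference was 0.19 (95 % confidence interval 0.02 to 0.35, adjusted p = 0.0519) and was not called. This sits at the threshold, since without 1 % CTRL replicate 3 the difference was 0.25 (adjusted p = 0.00809) and with libraries rescaled to the same total it was 0.27 (adjusted p = 0.00668).

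Both cryptochromes, the strongest direct inhibitors of CLOCK and BMAL1, fell. Cry1 (chr10:85131700-85185064, minus strand) ranged from 807 to 904 normalized counts under 5 % CTRL, around a median of 852. Under 1 % CTRL it ranged from 447 to 531 (median 483). No library of the lower group came near the upper one, and the log2 difference was -0.80 (SE 0.0467, adjusted p = 1.73e-16), or 0.573 of the level at 5 % O2. Cry2 (chr2:92403646-92434043, minus strand) ranged from 503 to 607 under 5 % CTRL (median 569.5) and from 340.4 to 399 under 1 % CTRL (median 349). It fell by 0.64 (SE 0.0543, adjusted p = 3.05e-12).

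The REV-ERB receptors, haem-binding repressors of Arntl, moved apart. Nr1d1 (chr11:98767932-98775333, minus strand) had between 946 and 1102 normalized counts under 5 % CTRL (median 1008) and between 1439.9 and 1558 under 1 % CTRL (median 1488). All libraries at 1 % O2 were higher, with a log2 difference of 0.56 (SE 0.0504, adjusted p = 2.15e-11). Nr1d2 (chr14:18204054-18239127, minus strand) had between 1506 and 1600.1 under 5 % CTRL (median 1533) and between 1139 and 1455 under 1 % CTRL (median 1284). It fell by 0.27 (SE 0.0437, adjusted p = 1.9e-06), the smallest change among the 9 genes called, and its groups did not overlap.

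Bhlhe40 and Bhlhe41 rose together. For Bhlhe40 (chr6:108660629-108666925, plus strand) the normalized count was 7677 to 8324 under 5 % CTRL (median 7828) and 10532 to 11385 under 1 % CTRL (median 10734). That is a rise of 1.37-fold (log2 difference 0.46, SE 0.0322, adjusted p = 2.82e-14). For Bhlhe41 (chr6:145858243-145865558, minus strand) it was 711 to 821 under 5 % CTRL (median 772) and 1326 to 1399 under 1 % CTRL (median 1372). With 1.77-fold (log2 difference 0.83, SE 0.0429, adjusted p = 8.16e-18) it had the lowest adjusted p of the 10 genes in this comparison.

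Dbp (chr7:45705088-45710203, plus strand) had the lowest count of the clock genes in all 4 groups. It ran from 36.6 to 53.4 normalized counts under 5 % CTRL (median 45.3) and from 65.2 to 113 under 1 % CTRL (median 83.6), without overlap. The log2 difference was 0.90 (SE 0.125, adjusted p = 1.69e-07), or 1.86-fold. On the other strand, 539 bases (18 %) of the exons of Dbp are also exon of Sphk2, a sphingosine kinase gene, and the strand was not used in counting. Sphk2 itself averaged 584 under 5 % CTRL and 720.3 under 1 % CTRL (log2 difference 0.30, adjusted p = 1.54e-05), and its part in the counts of Dbp was not tested.

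Other overlaps on the opposite strand were smaller or met genes with few counts. Of the exons of Nr1d1, 8.55 % are shared with Thra, a thyroid hormone receptor gene, which averaged 739 under 5 % CTRL and 708 under 1 % CTRL (log2 difference -0.06, adjusted p = 0.32). Of those of Bhlhe41, 19.0 % are shared with Gm43909, whose group means did not exceed 16.5 normalized counts.

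The second comparison set the same O2 levels side by side in stimulated myotubes, 1 % STIM against 5 % STIM, and shares no library with the first. Here 8 clock genes were called, 4 higher and 4 lower, while 57.4 % of all genes tested were called (29.0 % higher and 28.4 % lower). All 8 had also been called in unstimulated myotubes, each in the same direction, as were 46.0 % of all genes tested, while 0.64 % were called in opposite directions. The groups did not overlap for 7 of the 10 clock genes and for 37.3 % of all genes tested. Of the markers, 5 of 10 for myotubes were lower (summed counts 472607 to 546215 under 5 % STIM and 454269 to 497890 under 1 % STIM), and 3 of 6 for myoblasts were higher and 2 lower. Among the clock genes, Bhlhe40 was called without stimulation only, and its case is one of those where the difference between the comparisons was itself called.

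Per1 ran from 472 to 652 normalized counts under 5 % STIM (median 543) and from 769 to 951 under 1 % STIM (median 873). Its log2 difference was 0.68 (adjusted p = 8.57e-11). For Per2 the counts were 361 to 397 under 5 % STIM (median 371) and 135 to 182 under 1 % STIM (median 158). This was the largest change of any clock gene in the 4 comparisons, a fall of 1.27 on the log2 scale (SE 0.0707, adjusted p = 7.92e-17), to 0.416 of the level at 5 % O2. Per3 overlapped between 168 to 197 under 5 % STIM and 180.2 to 237 under 1 % STIM and was not called (log2 difference 0.07, 95 % confidence interval -0.10 to 0.24, adjusted p = 0.474).

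Both cryptochromes were again lower in every library at 1 % O2. Cry1 ranged from 862 to 922 under 5 % STIM (median 906) and from 525 to 643 under 1 % STIM (median 578), a fall of 0.63 on the log2 scale (adjusted p = 1.37e-13). Cry2 ranged from 638 to 747 under 5 % STIM (median 721) and from 368 to 426 under 1 % STIM (median 389), and it fell by 0.84 (adjusted p = 3.01e-15).

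Nr1d1 reached its highest level of the study under 1 % STIM. It had 1344 to 1481 normalized counts under 5 % STIM (median 1443) and 2016 to 2698 under 1 % STIM (median 2439), a log2 difference of 0.74 (adjusted p = 3.73e-14). Nr1d2 went the other way, from 1874 to 2012 under 5 % STIM (median 1954) to between 1562 and 1775 under 1 % STIM (median 1649), and fell by 0.23 (adjusted p = 3e-05). Dbp ran from 34.7 to 55.2 under 5 % STIM (median 43.1) and from 80.9 to 99.4 under 1 % STIM (median 86.7), with a log2 difference of 0.95 (adjusted p = 6.47e-08). Sphk2, its neighbour on the other strand, had a log2 difference of 0.51 in this comparison (adjusted p = 1.1e-09).

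The rise of the Bhlhe genes at 1 % O2 was smaller here. Bhlhe41 overlapped between the groups, with 1115 to 1351 normalized counts under 5 % STIM (median 1184) and 1267 to 1474 under 1 % STIM (median 1359), yet was called at a log2 difference of 0.18 (SE 0.0429, adjusted p = 0.000404). Bhlhe40 had 8272 to 8920.0 under 5 % STIM (median 8747) and 8235 to 9543 under 1 % STIM (median 9176). Its log2 difference of 0.05 (95 % confidence interval -0.01 to 0.12, adjusted p = 0.151) was not called. Without 1 % STIM replicate 1 it was 0.08 (adjusted p = 0.0271), and with libraries rescaled to the same total it was 0.12 (adjusted p = 0.0007).

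Electrical stimulation at 5 % O2 gave a different picture, in which no clock gene was called lower. Of the 10 genes, 5 were called against 5 % CTRL and all 5 were higher, whereas 21.4 % of all genes tested were called (9.44 % higher and 12 % lower). They were Bhlhe41, Nr1d1, Nr1d2, Cry2 and Bhlhe40, and in all but Bhlhe40 the groups did not overlap, as in 11.1 % of all genes tested. Among the markers, 3 of 10 for myotubes were lower, and 2 of 6 for myoblasts were higher and 1 lower. Bhlhe41, at 711 to 821 in the controls and 1115 to 1351 after stimulation, rose 1.56-fold (log2 difference 0.64, SE 0.0429, adjusted p = 8.58e-14). Nr1d1 rose from at most 1102 to at least 1344, with a log2 difference of 0.50 (SE 0.0504, adjusted p = 2.56e-09).

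Nr1d2 and Cry2, both lower at 1 % O2, were higher after stimulation. Nr1d2 ran from 1506 to 1600.1 in 5 % CTRL and from 1874 to 2012 in 5 % STIM (log2 difference 0.34, SE 0.0437, adjusted p = 3.25e-07). Cry2 ran from 503 to 607 and from 638 to 747 (log2 difference 0.33, SE 0.0543, adjusted p = 1.74e-05). Bhlhe40 changed least, with a log2 difference of 0.13 (SE 0.0322, adjusted p = 0.00212), and the highest control library, at 8324, lay above the lowest stimulated library, at 8272.

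The period genes were not called. Per1 was 0.17 higher on the log2 scale (95 % confidence interval 0.04 to 0.30, adjusted p = 0.0554), with ranges of 442 to 541 and 472 to 652 that overlapped. This again lies at the threshold: the difference was 0.21 (adjusted p = 0.017) without 5 % STIM replicate 3 and 0.20 (adjusted p = 0.044) by edgeR's quasi-likelihood test on the 22 libraries whose reads were recovered. Per2 differed by -0.13 (95 % confidence interval -0.28 to 0.01, adjusted p = 0.191) and Per3 by 0.07 (adjusted p = 0.636). For Cry1 the difference was 0.08 (95 % confidence interval -0.02 to 0.17, adjusted p = 0.244), and for Dbp it was -0.02 (95 % confidence interval -0.28 to 0.23, adjusted p = 0.933), a sign that turned in some alternatives.

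**Figure D3:**
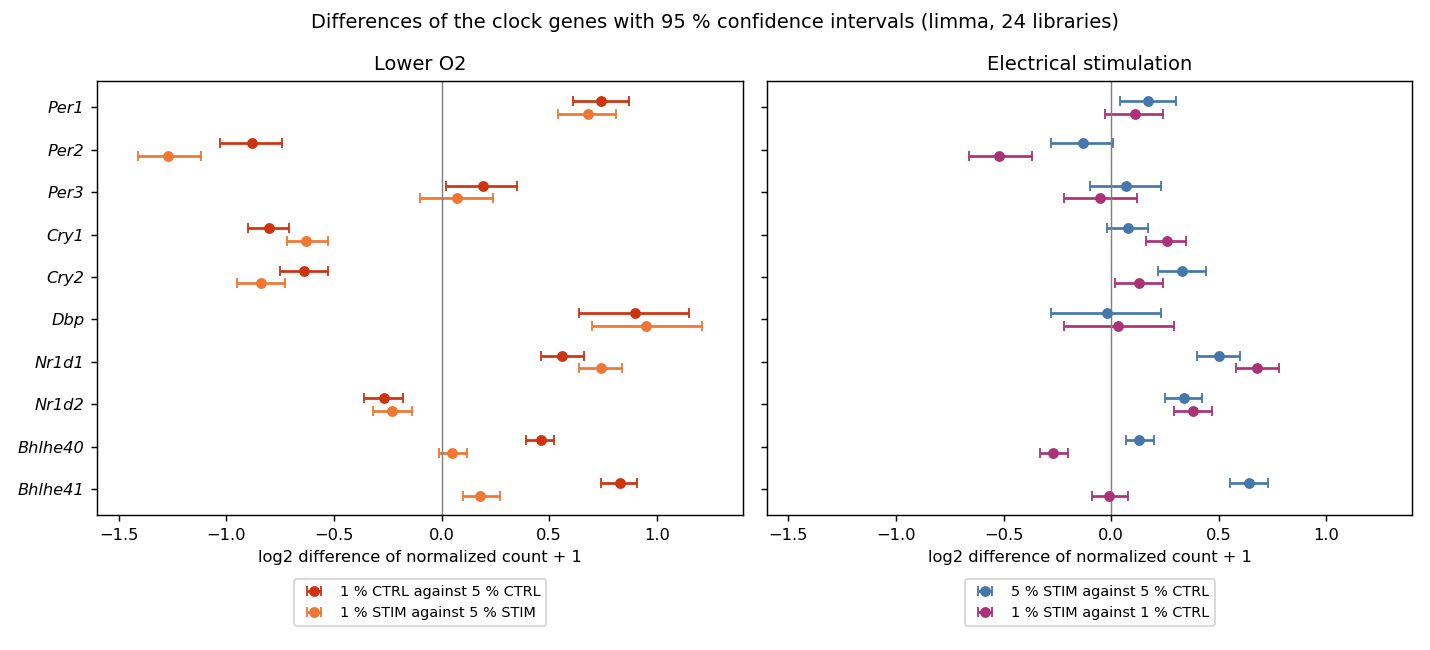
Log2 difference of each clock gene between groups with 95 % confidence intervals from limma, for lower O2 (left) and for electrical stimulation (right). Per2 has the most negative value at 1 % O2, -1.27 in stimulated myotubes, and the points of Bhlhe40 and Bhlhe41 lie apart within both panels.

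At 1 % O2, stimulation again called 5 of the 10 clock genes, 3 higher and 2 lower, with 22.3 % of all genes tested called (11.5 % higher and 10.8 % lower). Of the markers, 2 of 10 for myotubes were lower, and 1 of 6 for myoblasts was higher and 1 lower. Nr1d1 rose 1.60-fold, from 1439.9 to 1558 in 1 % CTRL to between 2016 and 2698 in 1 % STIM (log2 difference 0.68, SE 0.0504, adjusted p = 1.92e-12). Nr1d2 rose 1.30-fold without overlap (log2 difference 0.38, SE 0.0437, adjusted p = 2.25e-08), from at most 1455 to at least 1562. Both receptors thus rose with stimulation under each O2 level, the only 2 of the 10 clock genes called in the same direction in both stimulation comparisons, as 8.77 % of all genes tested were.

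Cry1, which had not been called at 5 % O2, rose by a log2 difference of 0.26 (SE 0.0467, adjusted p = 7.48e-05), although its highest control library, at 531, exceeded the lowest stimulated library, at 525. Per2 fell by 0.52 (SE 0.0707, adjusted p = 6.85e-07), from 189.8 to 262 in 1 % CTRL to 135 to 182 in 1 % STIM. Bhlhe40 fell by 0.27 (SE 0.0322, adjusted p = 5.43e-08), from at least 10532 to at most 9543. For these 2 genes the stimulated libraries all lay below the controls, so 4 of the 10 clock genes had groups without overlap, against 11.2 % of all genes tested.

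Cry2 was 0.13 higher (95 % confidence interval 0.02 to 0.24, adjusted p = 0.0979) and was not called, although without 1 % CTRL replicate 2 it was (0.15, adjusted p = 0.045). Per1 differed by 0.11 (95 % confidence interval -0.03 to 0.24, adjusted p = 0.268) and Per3 by -0.05 (adjusted p = 0.749). The differences of Dbp, 0.03 (95 % confidence interval -0.22 to 0.29, adjusted p = 0.9), and of Bhlhe41, -0.01 (95 % confidence interval -0.09 to 0.08, adjusted p = 0.956), were near 0. The interval of Bhlhe41 leaves out a rise of the size seen at 5 % O2.

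Whether stimulation acted differently at the 2 levels of O2 was tested by the interaction, the response at 1 % O2 minus that at 5 % O2. It was called for 3 clock genes, all negative, and for 11.3 % of all genes tested (5.43 % negative and 5.88 % positive). The strongest was Bhlhe41, with means of 772 ± 36.2, 1204 ± 85.9, 1370.3 ± 27.6 and 1367 ± 79.5 (SD, n = 6) under 5 % CTRL, 5 % STIM, 1 % CTRL and 1 % STIM. Its interaction was -0.64 (SE 0.0607, adjusted p = 1.75e-09). Either exposure alone raised it, and with both together its mean lay within the spread of 1 % CTRL.

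For Bhlhe40 the means were 7908 ± 258, 8678 ± 242, 10845 ± 307 and 9021 ± 519 (SD, n = 6) in the same order. Stimulation raised it at 5 % O2 and lowered it at 1 % O2, and the interaction was -0.40 (SE 0.0455, adjusted p = 8.96e-08). Being called in opposite directions in the 2 stimulation comparisons was uncommon, at 0.915 % of all genes tested. For Per2 they were 413 ± 25.5, 376 ± 12.9, 224 ± 24.8 and 156 ± 16.7 (SD, n = 6). Its fall with stimulation was called only at 1 % O2, and the interaction of -0.38 (SE 0.1, adjusted p = 0.00975) passed the test as well.

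The interaction was not called for the other clock genes. It was 0.18 for Nr1d1 (95 % confidence interval 0.03 to 0.32, adjusted p = 0.107), and 0.23 (adjusted p = 0.0145) without 1 % STIM replicate 4. Cry1 had 0.18 (95 % confidence interval 0.04 to 0.31, adjusted p = 0.0824) and Cry2 -0.21 (95 % confidence interval -0.36 to -0.05, adjusted p = 0.0789). Each of these 2 was called when single libraries were left out, Cry1 without 1 % CTRL replicate 1 (0.20, adjusted p = 0.0294) or 1 % STIM replicate 6 (0.20, adjusted p = 0.0322) and Cry2 without 5 % STIM replicate 1 (-0.24, adjusted p = 0.0422). Per1 gave -0.06, Per3 -0.11, Dbp 0.05 and Nr1d2 0.04, with adjusted p between 0.592 and 0.886.

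The balance within each pair of paralogues can be read in single libraries, as the ratio of their normalized counts per kilobase. These ratios are a description chosen after the values were seen, and no test was made on them. Per1 to Per2 was 1.22 ± 0.0827 (SD, n = 6) under 5 % CTRL and 1.52 ± 0.198 under 5 % STIM. At 1 % O2 it was 3.80 ± 0.607 without stimulation and 5.83 ± 0.607 with it, and the 4 groups rose in that order from a range of 1.14 to 1.36 up to 5.00 to 6.56. The 5 % groups overlapped, since 5 % STIM started at 1.33, and the 1 % groups did not overlap each other or the 5 % groups.

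Nr1d1 to Nr1d2 was near parity at 5 % O2, at 1.15 ± 0.0862 unstimulated and 1.29 ± 0.0509 stimulated (SD, n = 6). At 1 % O2 it was 2.06 ± 0.211 and 2.54 ± 0.207, with no library of either group as low as the highest at 5 % O2. Cry1 to Cry2 differed from these in keeping overlapping ranges, with group means between 2.40 and 2.87. Bhlhe40 to Bhlhe41 was highest under 5 % CTRL, at 14.1 to 15.4, and lay between 8.74 and 12.3 over the other groups.

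**Figure D4:**
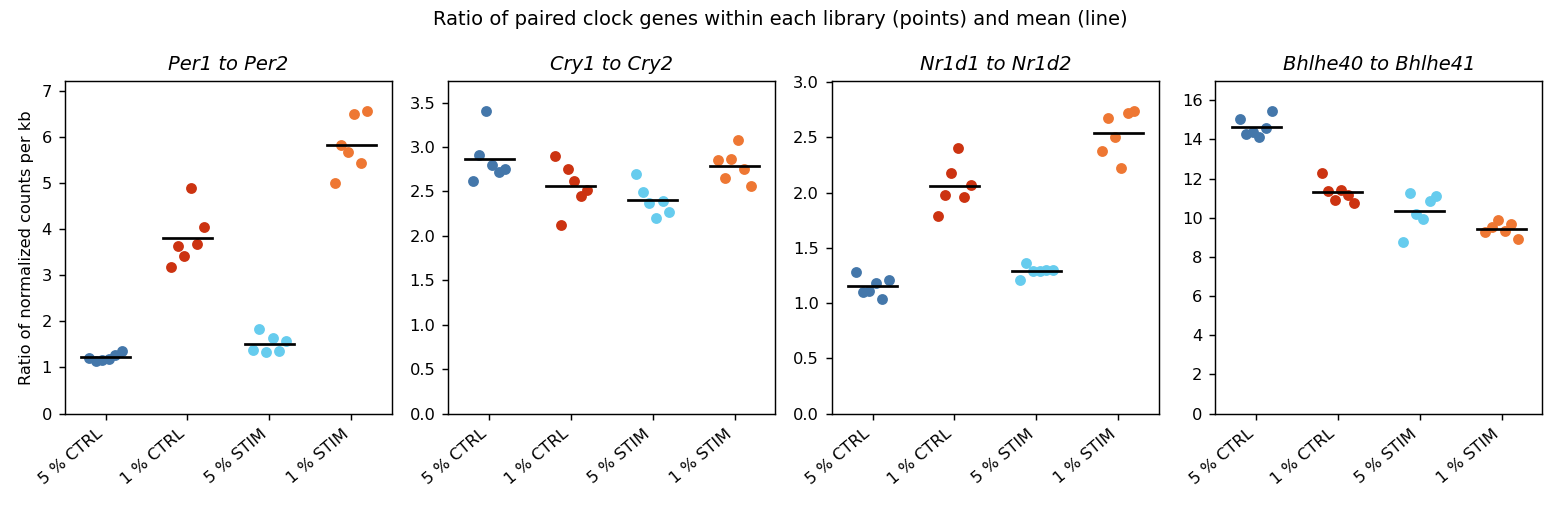
Ratio of normalized counts per kilobase within each library (points) for pairs of paralogous clock genes, with the group mean as a line and axes from 0. Per1 to Per2 rises from 1.22 under 5 % CTRL to 5.83 under 1 % STIM, whereas the ranges of Cry1 to Cry2 overlap.

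Around these 10 genes, the positive limb of the clock was led by a receptor gene. Of 7 activators tested, 3 rose and 1 fell at 1 % O2 without stimulation, 3 rose and none fell at 1 % O2 with it, and 2 rose with stimulation at each O2 level. Over all genes tested, 59.9 % and 57.4 % were called for O2 and 21.4 % and 22.3 % for stimulation, so these counts do not exceed that background for O2. The receptor was Rora, which activates Arntl at the sites that REV-ERBs repress. It averaged 139 ± 9.70 normalized counts under 5 % CTRL and 426 ± 47.7 under 1 % CTRL (SD, n = 6), a log2 difference of 1.61 (adjusted p = 2.96e-20). In stimulated myotubes it differed by 1.21 (adjusted p = 1e-16), and stimulation raised it at 5 % O2 (0.54, adjusted p = 1.54e-07).

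The core activators themselves had small differences. Arntl averaged 625 ± 30.2 under 5 % CTRL and 708 ± 34.2 under 1 % CTRL (log2 difference 0.18, adjusted p = 0.00172). Clock averaged 4775 ± 113 and 4476 ± 345 (log2 difference -0.10, adjusted p = 0.0321). That call was lost in edgeR's test (adjusted p = 0.081), in DESeq2 (adjusted p = 0.0952) and in limma voom (adjusted p = 0.0733). It was also lost without some single libraries, and with libraries rescaled to the same total the difference was -0.02 (adjusted p = 0.737). In stimulated myotubes neither gene was called at 1 % O2, with 0.07 for Arntl (adjusted p = 0.216) and -0.04 for Clock (adjusted p = 0.394). Npas2, an activator with few counts, differed by 0.59 at 1 % O2 without stimulation (adjusted p = 0.029) and by 0.90 with it (adjusted p = 0.00131). Rorb, another receptor of the ROR family with few counts here, averaged 52.6 ± 13.9 under 1 % CTRL and 80.9 ± 10.8 under 1 % STIM (log2 difference 0.64, adjusted p = 0.000735).

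Clock output genes moved in both directions. Of 10 tested, 5 rose and 4 fell at 1 % O2 without stimulation, where 29.4 % of all genes tested rose and 30.5 % fell, and again 5 rose and 4 fell with it (29.0 % and 28.4 %). Ciart, a repressor of CLOCK and BMAL1, averaged 126 ± 10 under 5 % CTRL and 378 ± 13.4 under 1 % CTRL (log2 difference 1.58, adjusted p = 8.48e-20). Nampt, the rate-limiting enzyme of NAD+ salvage, went from 1447 ± 44.5 to 4038 ± 246 (1.48, adjusted p = 6.15e-26). Usp2, a deubiquitinase, differed by 0.82 (adjusted p = 4.87e-15). All 3 fell with stimulation at 1 % O2, Ciart by 0.33, Nampt by 0.28 and Usp2 by 0.37, with adjusted p of 0.000408, 6.94e-07 and 1.92e-06.

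Tef, a factor of the same PAR bZIP family as Dbp, moved against it and is named here after its values were seen. It averaged 3514 ± 102 under 5 % CTRL and 2615 ± 42.6 under 1 % CTRL (SD, n = 6), and it fell by 0.43 at 1 % O2 both without stimulation (adjusted p = 2.5e-14) and with it (adjusted p = 2.37e-14). Hlf, the remaining member of that family, averaged 21.3 ± 3.30 and 10.3 ± 2.64 and fell by 1.01 without stimulation (adjusted p = 0.00104). With stimulation its difference at 1 % O2 was -0.21 (95 % confidence interval -0.74 to 0.31, adjusted p = 0.493).

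After stimulation at 5 % O2, 4 output genes rose and 2 fell (9.44 % and 12 % of all genes tested), and at 1 % O2 2 rose and 5 fell (11.5 % and 10.8 %). Klf15, a metabolic transcription factor, averaged 2.74 ± 2.20 under 5 % CTRL and 24 ± 6.29 under 5 % STIM, and its log2 difference of 2.96 (adjusted p = 2.19e-06) rests on few reads. Klf10, a factor induced by transforming growth factor beta, rose at 5 % O2 (0.14, adjusted p = 0.00332) and fell by 0.38 at 1 % O2 (adjusted p = 1.64e-10). Klf9, a factor induced by glucocorticoids, rose at both, by 0.29 (adjusted p = 1.02e-06) and 0.35 (adjusted p = 1.68e-08).

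**Figure D5:**
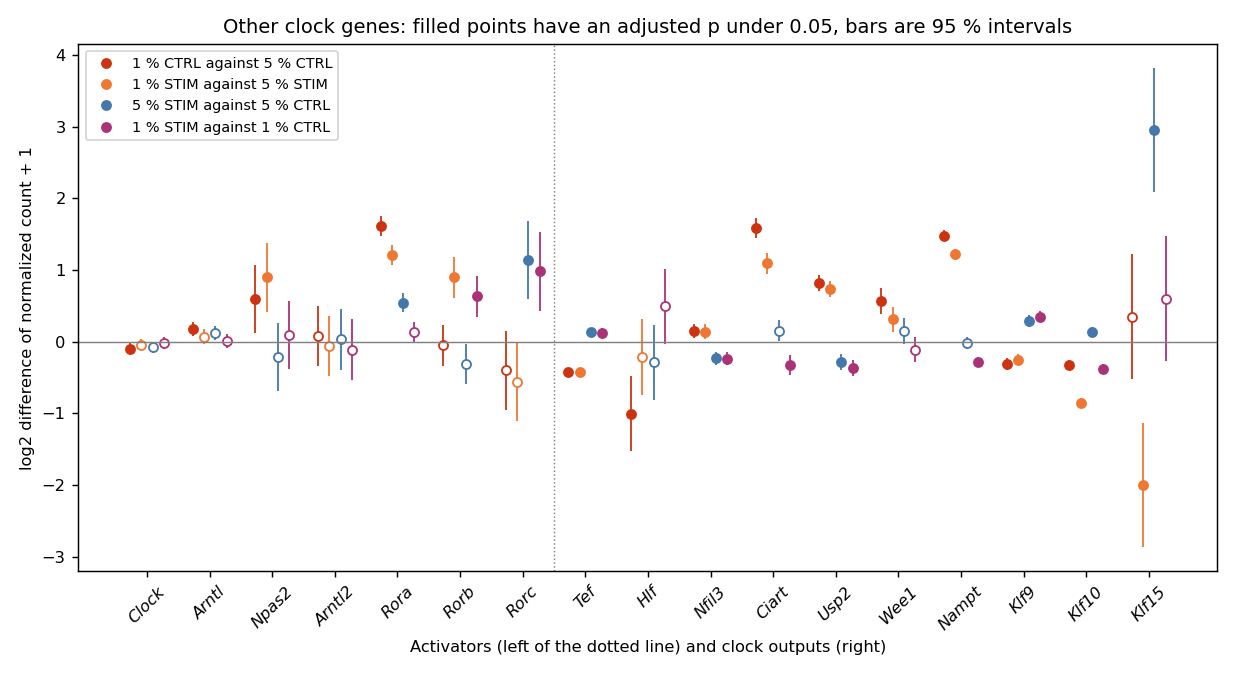
Log2 differences with 95 % intervals for 7 clock activators (left of the dotted line) and 10 clock output genes (right), with filled points where the adjusted p was under 0.05. Rora, Ciart and Nampt have the highest values at 1 % O2, and the wide interval of Klf15 reflects its low count.

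The RNAs of proteins that modify and degrade the repressors were also measured. Of 13 kinases, ubiquitin ligases and partners tested, out of 14 listed, 4 rose and 4 fell at 1 % O2 without stimulation and 5 rose and 3 fell with it, close to the 59.9 % and 57.4 % called over all genes tested. The median absolute log2 difference was 0.11 and 0.10, against 0.23 and 0.21 over all genes. Timeless and its partner Tipin, which act at replication forks, had log2 differences of 1.83 (adjusted p = 2.93e-18) and 0.91 (adjusted p = 1.8e-14) at 1 % O2 without stimulation.

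For each clock gene, the gene with the most similar pattern was sought among 10795 genes whose mean normalized count reached 100, by the root mean square difference of log2 values over 24 libraries after each gene was centred on its own mean. Bhlhe40 was closest to the glycogen synthase gene Gys1 (0.0687), and Cry1 to the calcium pump gene Atp2b1 (0.0743). Cry2 was closest to Smim3 (0.0844), and Nr1d2 to Spty2d1 (0.0845), followed by Cyp51 (0.0858) and Klf9 (0.0864). Per1 was closest to Ralgds (0.108), Per3 to Dcbld2 (0.108), Nr1d1 to Gab1 (0.113), Bhlhe41 to Fzd7 (0.114) and Per2 to Fam167a (0.135). Dbp, with the fewest counts, had the most distant neighbour, Cdc14b at 0.198. None of these nearest genes was another of the 10 clock genes, and the likeness describes these libraries only.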

How the data were processed

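Gene expression was measured in 24 cultures of C2C12 myotubes, 6 in each of 4 groups taken from the labels. The authors prepared strand-marked mRNA libraries, read them from 1 end, checked the reads with FastQC 0.11.7, mapped them to GRCm38 with STAR 2.5.4b and estimated counts with RSEM 1.3.0 at default settings, without use of strand. The signal deposited by the authors is the count of a gene divided by the DESeq2 size factor of its library. Size factors were 0.9545 to 0.9863 at 5 % O2 and 1.0167 to 1.0508 at 1 % O2 in the 22 libraries where whole reads were recovered (100 % of values within 0.01 of a whole number). In the other 2 the step was too close to 1 to be told from whole numbers. A deposited table of the authors' own fold changes, p-values and calls was not used.

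Genes that reached a normalized count of 10 in 6 or more libraries were tested by limma 3.58.1 (trend, robust) on log2(normalized count + 1) in 1 fit of the 4 groups, under R 4.3.3. Differences are on that scale, so changes of scarce genes are understated. Genes with a Benjamini-Hochberg adjusted p under 0.05 over all genes tested were called. The procedure was also run on simulated counts with the same dispersion for every gene and few changed genes. That setting differs from these data, so nothing is concluded from it here. Alternatives were a replicate block, omission of the filter, a pseudocount of 10, a threshold of 0.01, a fit of only the groups in a comparison, rescaling of all libraries to an equal total, omission of each library in turn and, on the 22 libraries, limma, limma voom, edgeR 4.0.16 and DESeq2 1.42.0. Limma on the 22 libraries was added after the data were seen.

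Coordinates and exon lengths came from the GENCODE M21 annotation of GRCm38, in which 99.5 % of the listed genes were found, and promoters from RefSeq GRCm38.p6. Named are the 10 clock genes, up to 5 called genes of each other clock list per comparison by size, the 3 genes most like each clock gene, and genes that overlap their exons. Some of the genes so chosen are left unnamed in the text but stay in all tests and counts. The members and lists were chosen with earlier results of these data known. Each culture counts as a replicate.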

Additional observations from a re-analysis of the deposited data

Results flagged for a closer look

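For 3 of the 10 clock genes the response to stimulation differed between the O2 levels by the interaction term of limma with Benjamini-Hochberg adjustment. The interaction was -0.38 for Per2, -0.40 for Bhlhe40 and -0.64 for Bhlhe41 (log2 scale). Among 45 other clock genes tested it was called for 13, where 11.3 % of all genes tested were called. It was -2.35 for Klf15, -0.52 for Klf10, -0.49 for Ciart, -0.40 for Rora, -0.32 for Sik1, -0.26 for Nampt, -0.24 for Nr3c1 and -0.22 for Tsc22d3. It was 0.95 for Rorb, 0.27 for Crebbp, 0.22 for Ep300, 0.21 for Atf1 and 0.17 for Prkaa1.

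A library far from the other 5 of its group was looked for in 172 groups of values, and 10 were found, none of them in a clock gene of the main 10. Chance alone gives about 1 in 20 such groups. In 1 % CTRL replicate 1, Nr3c1 (3524 normalized counts), Rora (517) and Timeless (479) stood above their groups. In 5 % CTRL replicate 6, Creb1 (1647) and Fkbp5 (1275) stood below theirs. The others were Nfil3 in 1 % CTRL replicate 5 (1191, low), Timeless in 5 % STIM replicate 1 (124, high), Wee1 in 1 % STIM replicate 1 (174, low), Klf9 in 1 % STIM replicate 3 (1714, high) and Tsc22d3 in 1 % STIM replicate 6 (2304, high).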

How the results depend on the processing

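Over 10 alternatives and 24 libraries left out in turn, 39 of the 50 differences of the clock genes kept their direction and their side of the threshold, and no call was lost. The counts of called clock genes stayed within 1.5 times their values. Differences near 0 turned sign in 14 cases. With libraries rescaled to the same total, Dbp at 5 % STIM against 5 % CTRL was 0.01 and Bhlhe41 at 1 % STIM against 1 % CTRL was 0.02. With single libraries left out, the turned values of Dbp were 0.01, 0.02 and 0.05 at 5 % O2 and -0.05 and 0.00 at 1 % O2, those of its interaction were -0.02, and those of Bhlhe41 lay between 0.00 and 0.02. Their full ranges over libraries left out were -0.08 to 0.05 for Dbp after stimulation at 5 % O2, -0.05 to 0.11 at 1 % O2, -0.02 to 0.13 for its interaction and -0.03 to 0.02 for Bhlhe41. For the differences not called, 23 values under alternatives were. They belong to Per3 at 1 % O2, Per1 after stimulation at 5 % O2, Bhlhe40 in stimulated myotubes, Cry2 after stimulation at 1 % O2 and the interactions of Cry1, Cry2 and Nr1d1. With 1 library left out, Per3 was called without 5 % CTRL replicate 1 (0.22), 1 % CTRL replicate 3 (0.25) or 4 (0.21), or 1 % STIM replicate 6 (0.19), and Per1 without 5 % CTRL replicate 6 (0.20), 5 % STIM replicate 1 (0.20) or 3 (0.21), or 1 % STIM replicate 1 (0.17). The cause was not tested. Of 92 differences of other clock genes, all chosen as called, 81 kept their call and the other 11 lost it under some alternative, in 95 values. These were Clock and Npas2 at 1 % O2, Crtc3, Ep300, Nono and Sik1 after stimulation at 5 % O2, Fkbp5 and Sik2 in stimulated myotubes, Creb1 and Crebbp after stimulation at 1 % O2, and the interaction of Prkaa1 (adjusted p = 0.0617 with limma on 22 libraries).

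The replicate block, with the number as a factor, gave 0.19 for Per3 at 1 % O2 (adjusted p = 0.0494) and 0.17 for Per1 after stimulation at 5 % O2 (adjusted p = 0.0436), and it changed no other call of the 10 genes. It called 3190 genes in place of 3115 for stimulation at 5 % O2. Libraries of the same number showed no strong likeness, with correlations between -0.148 and 0.155, of which 2 of 36 were above 0.1. The best match of a library shared its number in 9 of 36 pairs. Whether the numbers mark cultures handled together cannot be told from these correlations. Over all genes, a threshold of 0.01 called 1944 genes in place of 3115 for stimulation at 5 % O2 and 830 in place of 1645 for the interaction. Rescaling moved the share of higher calls from 49.0 % to 62.7 % and from 50.4 % to 63.2 % for O2, and from 44.0 % to 62.1 % and from 51.4 % to 62.4 % for stimulation. At these depths Dbp, with 34.7 to 113 normalized counts, had the widest intervals of the 10 genes.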

Other observations

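Genes through which signals reach the clock were measured too. Of 4 glucocorticoid-linked genes tested, 1 rose and 3 fell at 1 % O2 without stimulation, and 3 rose and none fell with stimulation at 5 % O2, where 59.9 % and 21.4 % of all genes tested were called. Sgk1, a kinase induced by glucocorticoids and cell stress, averaged 2344 ± 134 normalized counts under 5 % CTRL, 1381 ± 51.4 under 1 % CTRL, 3962 ± 203 under 5 % STIM and 2521 ± 130 under 1 % STIM (SD, n = 6). It fell by 0.76 at 1 % O2 (adjusted p = 7.26e-18) and rose by a log2 difference of 0.87 with stimulation at 1 % O2 (adjusted p = 2.19e-18). Tsc22d3, the leucine zipper gene induced by glucocorticoids, had the same directions, with -0.32 at 1 % O2 (adjusted p = 5.69e-10) and 0.59 with stimulation at 5 % O2 (adjusted p = 1.95e-15). Nr3c1, the glucocorticoid receptor gene, rose at 1 % O2 instead (0.43, adjusted p = 1.52e-11).

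Of 11 genes of calcium and cyclic AMP signalling tested, 2 rose and 6 fell at 1 % O2 without stimulation, and 5 rose and 1 fell with stimulation at 1 % O2, against 59.9 % and 22.3 % of all genes tested called in either direction. Sik1, a kinase that is itself induced by cyclic AMP and restrains the CREB coactivators, averaged 2559 ± 53.7 under 5 % CTRL and 3880.1 ± 204 under 1 % CTRL (log2 difference 0.60, adjusted p = 6.49e-17). Crebbp, the CREB-binding acetyltransferase gene, averaged 1742 ± 86.7 and 1276 ± 79.8 and fell by 0.45 (adjusted p = 1e-10). With stimulation at 1 % O2 the 2 moved the other way, Sik1 by -0.23 (adjusted p = 2.29e-06) and Crebbp by 0.15 (adjusted p = 0.011).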
